A study of Homo sapiens with 8 samples.

Results

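The YAP-TEAD genes are 10 rows, chosen by gene symbol, of the 19541 rows in a table that compares 3 SWI/SNF-deficient derivatives of HAP1 cells with their wildtype parent. They comprise the co-activators YAP1 and WWTR1, the DNA-binding partner TEAD1, the Hippo kinase LATS2, the angiomotin-like proteins AMOTL1 and AMOTL2, and the target genes CTGF, CYR61, ANKRD1 and AXL. HAP1 is an adherent, near-haploid human cell line that was derived from a chronic myeloid leukaemia line, and RNA-seq was run on 8 libraries, 2 in each of 4 groups. The groups are wildtype cells at passages 9 and 12, SMARCB1-null cells at passage 12 made with CRISPR-1 and CRISPR-2, SMARCA4-null cells at passage 12 made with CRISPR-1 and CRISPR-2, and double-null cells at passages 15 and 18 that carry the SMARCB1 CRISPR-1 and the SMARCA4 CRISPR-2 mutations. SMARCB1 and SMARCA4 encode a core subunit and an ATPase of the SWI/SNF chromatin remodelling complex, and the comparisons ask what their loss, alone or together, does to gene expression. The 2 wildtype libraries and the 2 double-null libraries are passages of 1 line each, and no wildtype library is as late in passage as the double null, so passage and the double mutation cannot be told apart.

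In the Hippo pathway, the kinases MST and LATS phosphorylate YAP and TAZ (the product of WWTR1) and hold them in the cytoplasm. Unphosphorylated YAP and TAZ enter the nucleus, bind TEAD proteins and switch on genes of growth, adhesion and the extracellular matrix. Several targets, LATS2 and AMOTL2 among them, encode inhibitors of YAP and so form a negative feedback. Messenger levels do not report phosphorylation or nuclear entry, which were not measured here.

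TEAD proteins bind the element GGAATG, and 4 promoters are printed to show where these letters stand in typical targets and how WWTR1, the member called in all 3 nulls, compares. Each is the 250 bases before the annotated start, 5′ to 3′ on the strand of the gene, from RefSeq on GRCh38.p14. Capitals mark GGAATG or its reverse complement CATTCC. CTGF lies on the minus strand at chr6:131951373-131951622, ANKRD1 on the minus strand at chr10:90921088-90921337, AMOTL2 on the minus strand at chr3:134374448-134374697 and WWTR1 on the minus strand at chr3:149658026-149658275.
CTGF: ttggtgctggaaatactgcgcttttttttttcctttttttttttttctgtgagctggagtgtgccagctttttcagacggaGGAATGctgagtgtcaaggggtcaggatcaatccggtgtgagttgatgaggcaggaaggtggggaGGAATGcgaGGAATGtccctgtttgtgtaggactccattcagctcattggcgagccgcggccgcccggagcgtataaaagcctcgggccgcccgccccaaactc
ANKRD1: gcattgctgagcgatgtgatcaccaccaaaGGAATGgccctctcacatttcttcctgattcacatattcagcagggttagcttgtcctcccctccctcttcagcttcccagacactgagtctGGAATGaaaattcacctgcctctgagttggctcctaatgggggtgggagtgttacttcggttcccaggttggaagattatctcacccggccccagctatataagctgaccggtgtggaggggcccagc
AMOTL2: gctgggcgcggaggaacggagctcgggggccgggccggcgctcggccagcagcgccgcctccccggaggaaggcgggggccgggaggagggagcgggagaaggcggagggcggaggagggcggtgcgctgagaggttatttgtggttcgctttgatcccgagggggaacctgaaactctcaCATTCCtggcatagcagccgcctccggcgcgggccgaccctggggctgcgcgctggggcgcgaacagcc
WWTR1: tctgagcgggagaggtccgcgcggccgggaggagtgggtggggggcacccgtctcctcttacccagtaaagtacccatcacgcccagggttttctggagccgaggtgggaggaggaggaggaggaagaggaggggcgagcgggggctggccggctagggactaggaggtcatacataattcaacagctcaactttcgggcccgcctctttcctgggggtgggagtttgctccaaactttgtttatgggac

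The CTGF window holds 3 matches, which begin at positions -169, -104 and -95 counted from the annotated start, and the ANKRD1 window holds 2, at -220 and -128. Each of AMOTL2 (-69), AXL (-212) and YAP1 (-162) has 1 match, for AMOTL2 and AXL in 1 of 2 annotated windows. The windows of WWTR1, AMOTL1 and LATS2 hold none. Of 35116 promoter windows of the same length, 11.9% hold at least 1 match, 0.940% at least 2 and 0.0826% at least 3. Windows were found for 8 of the 10 genes, and a match is only a description of the letters.

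The authors' deposited table gives for each gene the total reads over all libraries and, for each null, a p-value, an FDR and a ratio to wildtype, with no value per library and no error of the ratio. A level was implied for each group from the total reads and the 3 ratios, in reads per library of mean depth. It assumes that both libraries of a group stand at the same level, and the bounds given with it put all reads of each group into 1 of its libraries. The error is a factor shared by all 4 groups of a gene, so it does not change their ratios. On genes whose reads per library are known, its median size was 0.81% and its 95th percentile 14.4%. Levels are not divided by transcript length and compare groups of 1 gene, not genes with each other. For part of the genes, 3 members among them, the whole reads in each of the 8 libraries could be solved from the total and the 3 ratios (recovered reads). Within a group the libraries are known only as the deeper and the shallower one, not by passage or CRISPR line. Their depths were inferred from the ratios, as shares of the total reads over all genes. They were 81.8 M and 68.3 M reads in wildtype and 70.2 and 67.9 in SMARCB1-null cells. In SMARCA4-null cells they were 92.3 and 71.5, and in double-null cells 103 and 75.7.

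The labels and the cultures were checked on other genes. In the authors' deposited table SMARCB1 had a ratio of 0.109 in the SMARCB1 null and 0.182 in the double null, and SMARCA4 had 0.0918 in SMARCA4-null and 0.152 in double-null cells, each called lower, with ratios of 0.970 for SMARCB1 in the SMARCA4 null and 0.947 for SMARCA4 in the SMARCB1 null. Markers of other cell types moved with some lines. The summed implied level of 21 muscle markers was 1403 reads per library in wildtype, 27513 in SMARCB1-null cells, 1617 in SMARCA4-null cells and 2582 in double-null cells, with MYOG near 0 in wildtype and the SMARCA4 null. From wildtype to the SMARCA4 null TNNT1 rose from 238 to 1099, while TTN fell from 351 to 62.5 and ACTA1 from 61.8 to 12.5. Most of the other muscle markers were lower there than in wildtype, many of them at low levels. The 6 recovered muscle genes summed to 2923 reads at the mean depth in the deeper SMARCB1-null library and to 9.29 in the shallower one. In this pair ANKRD1, a muscle gene too, had 25 and 1 reads. In wildtype ANKRD1 had 25 and 7 reads where the 6 genes summed to 26.0 and 71.6, the deeper library first. In the double null it had 28 and 7 where they summed to 77.3 and 20.8. The summed level of 12 neuronal markers was 12093 in wildtype, 4270 in SMARCB1-null cells, 11238 in SMARCA4-null cells and 156202 in double-null cells, where 1 recovered gene had 5110 reads at the mean depth in the deeper and 14.6 in the shallower library. Few genes carry these sums. From wildtype to the SMARCB1 null SYT1 fell from 5834 to 393 and TUBB3 from 5216 to 1743, while NEFL rose from 79.5 to 419 and SYP from 699 to 1366. In the double null SYT1, at 3323, stood below wildtype. In the SMARCA4 null SYT1 was lower still, at 81.8, while TUBB3 at 8937 and SYP at 1717 stood above wildtype. The 7 fibroblast markers summed to 719 in wildtype, 3527 in SMARCB1-null cells, 1055 in SMARCA4-null cells and 2956 in double-null cells, and the 5 epithelial markers to 2178, 817, 2129 and 1148, with KRT19 near 0 in all lines but the double null. The epithelial sums are mostly KRT18, at 2103 in wildtype and 1937 in the SMARCA4 null. In the same 2 lines EPCAM stood at 24.5 and 76.9 and KRT8 at 50.5 and 112. EPCAM in the double null was 57.4. Of the blood list 6 of 8 markers were measured, and they summed to 15.7 in wildtype, 151 in SMARCB1-null cells, 36.8 in SMARCA4-null cells and 215 in double-null cells, with the defining genes PTPRC and SPI1 below 1 in wildtype. By the FDR in the authors' deposited table, 1 muscle marker was called higher in each single null, 3 neuronal markers in the double null, 1 blood marker in every null, and 1 and 2 fibroblast markers in the SMARCB1 and the double null. Of the epithelial markers 1 was called higher in SMARCA4-null cells, 1 in double-null cells, and 2 lower in the SMARCB1 null and 1 in the double null. The part of these markers in the YAP-TEAD values was not tested.

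With the FDR of the authors' deposited table below 0.05, WWTR1 was lower in every null, TEAD1 was higher in the SMARCB1 null, and CYR61 was higher in the SMARCA4 null. The other 7 members were called in no null. In the SMARCB1 null 1 of 10 members was called higher, where 7.86% of all rows were, and 1 lower, where 5.76% of all rows were. In the SMARCA4 null 1 was called higher (7.39% of all rows) and 1 lower (4.49%). In the double null 0 were called higher (12% of all rows; 1 member, LATS2, at an unadjusted p under 0.05) and 1 lower (5.97%). With 1 call in 10 members per direction at most, these shares are near those of all rows. The median log2 ratio of the 10 members was -0.16, 0.24 and 0.06 in the SMARCB1, SMARCA4 and double null, beside 0.06, 0.03 and 0.17 over all rows in the authors' deposited table. The 3 comparisons share the same wildtype libraries.

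**Figure D1:**
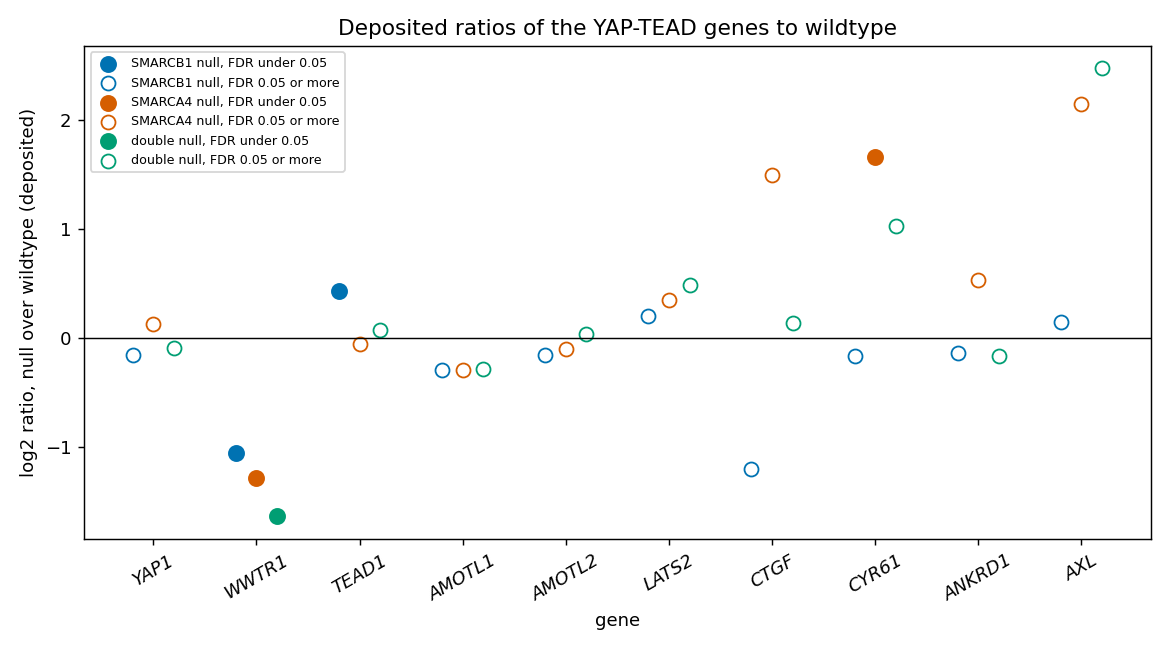
Deposited log2 ratio of each null to wildtype (vertical axis) for the 10 YAP-TEAD genes (horizontal axis); filled points have an FDR under 0.05 in the authors' table and open points do not, and the table gives no error of the ratio. WWTR1 lies below 0 in all 3 nulls, between -1.05 and -1.64, while YAP1 stays between -0.15 and 0.13.

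What the deposited p-value measures bears on these calls. For 7 of the 10 members, all but LATS2, ANKRD1 and AXL, the 3 deposited p-values give back 1 and the same wildtype level (within 5% of each other and within 10% of the level implied by the reads) when the ratio is tested as if depth-scaled reads (RPM) were Poisson counts. Such a test has no term for the spread between replicate libraries. The form of the p-value was noticed after the values had been seen, and it was not worked out for the other 3. The same holds for 7609 of 12431 genes with at least 2000 reads (61.2%). If the authors' test had this form, the calls of WWTR1, TEAD1 and CYR61 in the authors' deposited table carry no measure of replicate spread. Among the pathway genes named further on, neither do those of FAT4, FAT1, AMOT, VGLL3, MYOF, DOCK5 and CRIM1. FRMD6, STK3, TAOK2, VGLL4, F3, NUAK2 and NT5E did not match this form. Whether the calls of these unmatched genes measure replicate spread was not worked out.

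Of the co-activators, WWTR1 differed in level between lines and YAP1 had ratios near 1. WWTR1, which encodes TAZ, had an implied level of 12844 reads per library in wildtype (bounds 11747 and 14166), 6200 in SMARCB1-null cells, 5264 in SMARCA4-null cells and 4131 in double-null cells. The wildtype level was the highest and the double-null level the lowest. In the authors' deposited table the ratios were 0.483 (FDR 2.61e-08), 0.410 (FDR 6.43e-11) and 0.322 (FDR 5.88e-15), which is a log2 ratio of -1.05, -1.29 and -1.64. Whether the 3 nulls differ from each other in WWTR1 was not tested, since its reads per library could not be recovered. An antisense gene, WWTR1-AS1, overlaps WWTR1 on the opposite strand, with implied levels of 50.3, 47.3, 52.2 and 54.3 reads per library in the 4 groups. The libraries came from a stranded kit, and whether the counting used the strand is not given in the sources used here. Fewer cells that express a gene and less RNA of it per cell cannot be told apart in bulk libraries.

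YAP1, the paralogue of WWTR1, had implied levels of 9651 reads per library in wildtype (bounds 8751 and 10756), 8671 in SMARCB1-null cells, 10561 in SMARCA4-null cells and 9085 in double-null cells. Its ratios in the authors' deposited table were 0.899 (FDR 0.686), 1.09 (FDR 0.776) and 0.941 (FDR 0.799). The highest and the lowest of these levels belonged to the SMARCA4 null and the SMARCB1 null, and none of the 3 differences from wildtype was called. That YAP1 is unchanged is not shown by these p-values.

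TEAD1, the DNA-binding partner, had an implied level of 15745 reads per library in wildtype (bounds 14371 and 17409), 21266 in SMARCB1-null cells, 15176 in SMARCA4-null cells and 16597 in double-null cells. The SMARCB1 null was the highest line, and in the authors' deposited table its ratio was 1.35 (FDR 0.00241). The other ratios there were 0.964 (FDR 0.928) in the SMARCA4 null and 1.05 (FDR 0.764) in the double null. Once the ratios were centred on the median of rows with at least 1000 reads, the double-null log2 ratio of TEAD1 moved from 0.08 to -0.00334, so it has no direction there. The other TEAD genes were called in no null. The authors' deposited table lists TEAD2 at 0.900, 1.04 and 0.947 times wildtype, TEAD4 at 1.03, 1.12 and 0.975, and TEAD3 at 0.914, 1.24 and 1.13.

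**Figure D2:**
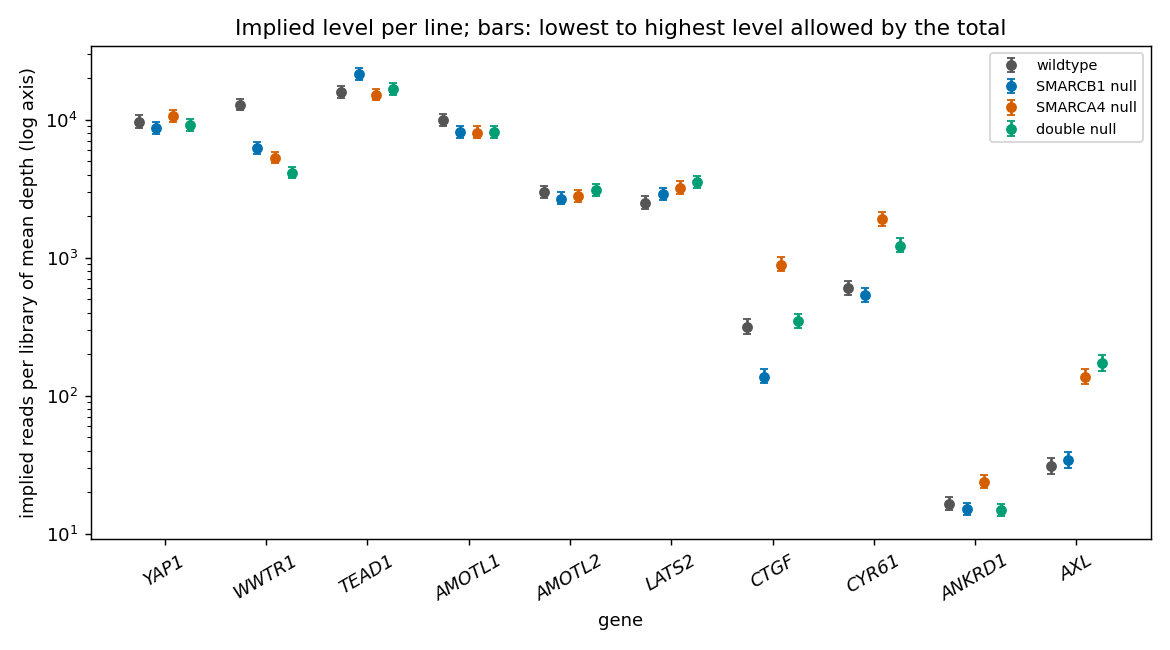
Implied reads per library of mean depth (log axis) for the 10 genes in wildtype and the 3 nulls; bars run from the lowest to the highest level that the total reads allow and are shared in proportion by the 4 groups of a gene. Levels compare groups of 1 gene: WWTR1 lies at 12844 in wildtype and at 4131 in the double null, and CYR61 lies at 1896 in the SMARCA4 null beside 599 in wildtype.

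Of the inhibitors of YAP, the angiomotin-like genes were called in no null. AMOTL1, a junction protein that binds YAP, had implied levels of 9858 reads per library in wildtype and 8067, 8050 and 8125 in the SMARCB1, SMARCA4 and double null. Its 3 ratios in the authors' deposited table were all below 1, at 0.818 (FDR 0.298), 0.817 (FDR 0.321) and 0.824 (FDR 0.269). AMOTL2, a related inhibitor that is also a target of YAP, had implied levels of 2989 in wildtype and 2680, 2789 and 3075 in the same order of nulls. Its ratios in the authors' deposited table were 0.896 (FDR 0.858), 0.933 (FDR 0.953) and 1.03 (FDR 0.957). The double-null log2 ratio of AMOTL2 was 0.04 and became -0.04 when centred on the median of rows with at least 1000 reads.

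LATS2, the kinase that phosphorylates YAP and TAZ, is 1 of the 3 members with recovered reads. LATS2 had 2634 and 2157 reads in wildtype, 2480 and 2581 in SMARCB1-null cells, 3506 and 3110 in SMARCA4-null cells and 4621 and 3356 in double-null cells, the deeper library first. Brought to the mean depth of the 8 libraries, these are 2539 and 2490 in wildtype, 2785 and 2996 in SMARCB1-null cells, 2995 and 3428 in SMARCA4-null cells and 3539 and 3493 in double-null cells. Under this scaling by the authors' library sizes every null library lay above both wildtype libraries, and both double-null libraries lay above all others.

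With these reads, edgeR's quasi-likelihood test with Benjamini-Hochberg adjustment over 3398 genes gave LATS2 a log2 change of 0.48 (SE 0.083, adjusted p = 0.00107) in the double null and of 0.35 (SE 0.083, adjusted p = 0.0117) in the SMARCA4 null. In the SMARCB1 null the edgeR log2 change was 0.20 (SE 0.083, adjusted p = 0.117). The authors' deposited table calls none of these, with ratios of 1.15 (FDR 0.659), 1.28 (FDR 0.312) and 1.40 (FDR 0.0620) in the SMARCB1, SMARCA4 and double null. In edgeR 2 of the 3 recovered members, LATS2 and AXL, were called in the SMARCA4 null, where 18.1% of the genes tested were, and the same 2 in the double null, where 30.8% were. In the SMARCB1 null 0 of 3 were called, where 19.1% of the genes tested were, with 1 (LATS2) at an unadjusted p under 0.05 and 0 in DESeq2. Under TMM scaling, which moved the median log2 change of all genes tested by -0.11 (SMARCB1 null), -0.09 (SMARCA4 null) and -0.23 (double null), the log2 change of LATS2 was 0.09, 0.26 and 0.25, and its edgeR adjusted p was 0.520, 0.0447 and 0.0371. Differences of LATS2 between nulls were not called (edgeR adjusted p = 0.262, 0.0699 and 0.299 for SMARCA4 null against SMARCB1 null, double null against SMARCB1 null and double null against SMARCA4 null). The last of these, a log2 difference of 0.13, had no stable direction, since it was -0.0096 under TMM scaling. With 1 wildtype library left out, the edgeR log2 change of LATS2 in the double null was no longer called. It was 0.50 without the deeper wildtype library and 0.47 without the shallower one. Without the deeper double-null library, in which the 1 recovered neuronal marker was high, the double-null change was 0.47. For the SMARCA4 null the adjusted p was 0.171 and 0.215 without the deeper and the shallower wildtype library, 0.203 without the shallower SMARCA4-null library, and 0.0532 and 0.0568 without the deeper and the shallower SMARCB1-null library, all of which are above the threshold.

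**Figure D3:**
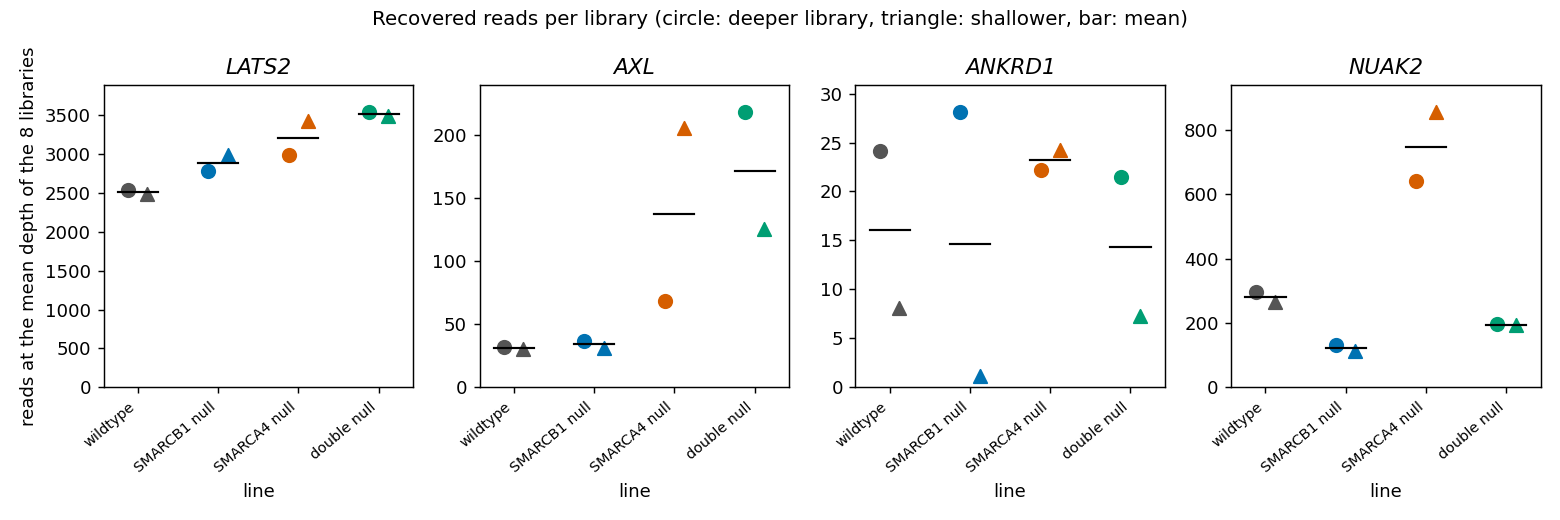
Reads per library at the mean depth of the 8 libraries (vertical axis, from 0) for LATS2, AXL, ANKRD1 and NUAK2 in each line; circles are the deeper and triangles the shallower library of a group and bars their mean. The AXL libraries of the SMARCA4 and double nulls lie at 68.3 or above, those of wildtype and the SMARCB1 null at 37.1 or below.

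Of the target genes, the secreted matricellular proteins CTGF and CYR61 stood highest in the SMARCA4 null. CYR61 had implied levels of 599 reads per library in wildtype (bounds 536 and 679), 533 in SMARCB1-null cells, 1896 in SMARCA4-null cells and 1221 in double-null cells. Its ratio in the authors' deposited table was 3.16 in the SMARCA4 null (FDR 0.0142), 2.04 in the double null (FDR 0.208) and 0.890 in the SMARCB1 null (FDR 0.958). CTGF, whose promoter is printed above with 3 GGAATG letters, had implied levels of 316 reads per library in wildtype (bounds 282 and 358), 138 in SMARCB1-null cells, 889 in SMARCA4-null cells and 347 in double-null cells. Its ratios in the authors' deposited table were 0.436 (FDR 0.635), 2.82 (FDR 0.213) and 1.099 (FDR 0.952) in the SMARCB1, SMARCA4 and double null. So the lowest level of CTGF was in the SMARCB1 null and the highest in the SMARCA4 null, with no call against wildtype. The libraries behind both genes could not be separated, and the difference between nulls was not tested.

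AXL, a receptor tyrosine kinase of adhesion and invasion, was higher in the SMARCA4 and the double null by edgeR on recovered reads. It had 33 and 26 reads in wildtype, 33 and 27 in SMARCB1-null cells, 80 and 187 in SMARCA4-null cells and 285 and 121 in double-null cells, the deeper library first. At the mean depth these are 31.81 and 30.02 in wildtype, 37.1 and 31.3 in SMARCB1-null cells, 68.3 and 206 in SMARCA4-null cells and 218 and 126 in double-null cells. All 4 libraries of the SMARCA4 and double nulls lay above the 4 of wildtype and the SMARCB1 null, with 1 library of each of those nulls well above the other. In edgeR with Benjamini-Hochberg adjustment the log2 change was 2.14 (SE 0.53, adjusted p = 0.0265) in the SMARCA4 null, 2.47 (SE 0.53, adjusted p = 0.0101) in the double null and 0.14 (SE 0.53, adjusted p = 0.881) in the SMARCB1 null. The authors' deposited table calls none of these, with ratios of 4.44 (FDR 0.508), 5.57 (FDR 0.267) and 1.11 (FDR 1.00).

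Between nulls, edgeR called AXL higher in the SMARCA4 than in the SMARCB1 null, by 2.00 on the log2 scale (SE 0.52, adjusted p = 0.0389), and higher in the double than in the SMARCB1 null, by 2.33 (SE 0.53, adjusted p = 0.0457; 0.0551 under TMM scaling). With no filter on low reads neither was called (edgeR adjusted p = 0.0807 and 0.119). Each is 1 of 3 members called, where 15.7% and 5.89% of the genes tested were. For the double against the SMARCA4 null the edgeR log2 difference of AXL was 0.33 (SE 0.49, adjusted p = 0.694), and 0 of 3 members were called, at an unadjusted p under 0.05 or in DESeq2 either, where 16.8% of the genes tested were. Without the shallower SMARCA4-null library the SMARCA4-null change of AXL was 1.14 (edgeR adjusted p = 0.240), and without the deeper or the shallower wildtype library the adjusted p was 0.262 or 0.298. Without the deeper or the shallower SMARCB1-null library it was 0.0989 or 0.102. The double-null change had an edgeR adjusted p of 0.149, 0.156 and 0.0522 without the deeper wildtype, the shallower wildtype and the shallower SMARCB1-null library. Without the deeper double-null library, in which the 1 recovered neuronal marker was high, the double-null change was 2.02. Both differences from the SMARCB1 null lost their edgeR call without either wildtype or either SMARCB1-null library (adjusted p from 0.150 to 0.461). The SMARCA4-null difference also lost it without the shallower SMARCA4-null library, where it was 1.00 (edgeR adjusted p = 0.362), and the double-null difference without the deeper double-null library (1.88, adjusted p = 0.101) or either SMARCA4-null library (0.0798 and 0.0773). The recovered reads of AXL are less secure than those of LATS2. The total of AXL is listed as 792 only within 0.001. Of 500 sets of its ratios shifted on purpose 1 also gave a solution, against 0 of 500 for LATS2 and ANKRD1. The AXL solution gave back its ratios with a relative error of 7.66e-07, close to the tolerance of 1e-06. For ANKRD1, at the same tolerance, the error was 4.78e-08.

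ANKRD1, a nuclear ankyrin-repeat protein best known from heart and skeletal muscle, was too low for a comparison. It had 25 and 7 reads in wildtype, 25 and 1 in SMARCB1-null cells, 26 and 22 in SMARCA4-null cells and 28 and 7 in double-null cells, the deeper library first. In every group but the SMARCA4 null the shallower library had far fewer reads than the deeper one, and the groups overlapped. Its edgeR log2 changes were -0.15, 0.51 and -0.15 in the SMARCB1, SMARCA4 and double null, with SEs of 1.124, 1.090 and 1.105 and adjusted p-values of 0.946, 0.828 and 0.936. Without the deeper SMARCB1-null library, in which muscle genes were high, the SMARCB1-null change was -3.67 (edgeR adjusted p = 0.211). The ratios in the authors' deposited table were 0.909 (FDR 0.902), 1.44 (FDR 0.966) and 0.893 (FDR 0.982).

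In the wider pathway, 25 Hippo regulators, 10 co-activators and TEAD partners and a 22-gene set of YAP-TEAD targets were read, and the lists include members. The names below were chosen as the called genes with the largest ratios that are no members. All 25 regulators were measured. In the authors' deposited table, 2 regulators were called higher and 2 lower in SMARCB1-null cells, 3 and 1 in SMARCA4-null cells and 2 and 3 in double-null cells, beside shares of all rows of 7.86% higher and 5.76% lower, 7.39% and 4.49%, and 12% and 5.97%. Their median log2 ratio was 0.09, 0.07 and 0.04, beside 0.06, 0.03 and 0.17 over all rows. FRMD6, a FERM-domain protein upstream of the kinases, was lower in every null, with ratios in the authors' deposited table of 0.309 (FDR 4.08e-17), 0.429 (FDR 3.82e-10) and 0.390 (FDR 3.01e-12) in the SMARCB1, SMARCA4 and double null. FAT4, an atypical cadherin, was lower in the SMARCB1 null at 0.317 (FDR 1.06e-05) and in the double null at 0.183 (FDR 4.79e-08), with a ratio of 1.36 (FDR 0.210) in the SMARCA4 null, in the authors' deposited table. Its relative FAT1 was higher in the SMARCA4 null at 1.81 (FDR 7.62e-16), with ratios of 1.04 and 1.08 in the SMARCB1 and double null there.

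AMOT, the founding angiomotin, went opposite ways in the authors' deposited table, higher in the SMARCA4 null at 2.44 (FDR 9.16e-09) and lower in the double null at 0.574 (FDR 0.0278). Its ratio in the SMARCB1 null was 1.07 (FDR 0.915). STK3, which encodes the kinase MST2, was called higher in every null in the authors' deposited table, at 1.27, 1.12 and 1.33 (FDR 3.07e-07, 0.0421 and 6.46e-10). TAOK2, a kinase upstream of MST, was higher in the SMARCB1 null at 1.22 (FDR 2.67e-09) and in the double null at 1.24 (FDR 1.46e-10) in the same deposited table. These kinase ratios are the smallest changes called in the list. They stand as the authors scaled them, and whether they hold under TMM scaling was not tested.

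Of the co-activators and TEAD partners 9 of 10 were measured. In the authors' deposited table, 2 genes were called higher and 1 lower in SMARCB1-null cells, 1 and 2 in SMARCA4-null cells and 1 and 1 in double-null cells, over the same shares of all rows (7.86% and 5.76%, 7.39% and 4.49%, 12% and 5.97%). VGLL3, a vestigial-like cofactor that binds TEAD, had implied levels of 1896 reads per library in wildtype, 10536 in SMARCB1-null cells, 738 in SMARCA4-null cells and 15078 in double-null cells. Its ratios in the authors' deposited table were 5.56 (FDR 4.54e-17), 0.389 (FDR 0.0388) and 7.95 (FDR 3.76e-26). The SMARCB1 and double nulls stood above wildtype and the SMARCA4 null below it. VGLL4, a vestigial-like repressor of TEAD, was higher in the SMARCA4 null at 1.30 (FDR 2.48e-05), with ratios of 0.872 (FDR 0.0876) and 1.02 (FDR 0.893) in the SMARCB1 and double null in the authors' deposited table.

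All 22 genes of the target set were measured. In the authors' deposited table, 3 targets were called higher and 2 lower in SMARCB1-null cells, 6 and 0 in SMARCA4-null cells and 3 and 0 in double-null cells. The shares of all rows called higher and lower were 7.86% and 5.76% in the first of these lines, 7.39% and 4.49% in the second and 12% and 5.97% in the third. Their median log2 ratio was -0.12, 0.21 and 0.27, beside 0.06, 0.03 and 0.17 over all rows. The higher calls in the SMARCB1 and the double null include NT5E (FDR 0.0459 and 0.0294), which has 22 reads in all libraries together. With adjustment over rows of at least 50 reads, 2 targets were higher in the SMARCB1 null, and 2 were higher and 1 lower in the double null. At an FDR under 0.01 the higher count in the SMARCB1 null was 1. MYOF, a ferlin of membrane repair, had an implied level of 17.98 reads per library in wildtype, 3780 in SMARCB1-null cells, 11719 in SMARCA4-null cells and 9243 in double-null cells. The authors' deposited table gives MYOF an FDR of 0.0248, 0.00432 and 0.00463. F3, tissue factor, was called higher in every null there, with ratios of 1.70 (FDR 3.53e-07), 3.20 (FDR 2.21e-17) and 1.85 (FDR 1.00e-08). DOCK5, an exchange factor for Rac, was called in the SMARCA4 null at 2.98 (FDR 5.43e-05), with ratios of 1.69 (FDR 0.174) and 1.81 (FDR 0.0794) in the SMARCB1 and double null in the authors' deposited table. CRIM1, a transmembrane protein that binds BMPs, was called in the SMARCA4 null at 2.18 (FDR 0.00732) in the authors' deposited table.

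NUAK2, an AMPK-related kinase, was the only other gene of the target set with enough recovered reads for edgeR. It had 308 and 230 reads in wildtype, 117 and 97 in SMARCB1-null cells, 750 and 776 in SMARCA4-null cells and 256 and 185 in double-null cells, the deeper library first. At the mean depth these are 297 and 266, 131 and 113, 641 and 855, and 196 and 193, so the 4 groups did not overlap. In edgeR with Benjamini-Hochberg adjustment the log2 change was -1.20 (SE 0.19, adjusted p = 8.91e-04) in the SMARCB1 null and 1.41 (SE 0.19, adjusted p = 4.16e-04) in the SMARCA4 null. Without the deeper or the shallower wildtype library the SMARCA4-null adjusted p in edgeR was 0.0616 or 0.0804. For the SMARCB1 null it was 0.0677 without the deeper wildtype library and 0.0516 without the shallower SMARCB1-null library. In the double null the edgeR log2 change was -0.53 (SE 0.19, adjusted p = 0.0503, and 0.0109 under TMM scaling). The SMARCA4 null exceeded the SMARCB1 null by 2.61 (SE 0.20, edgeR adjusted p = 8.78e-06), and the log2 difference of the double from the SMARCA4 null was -1.94 (SE 0.19, edgeR adjusted p = 5.61e-05).

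**Figure D4:**
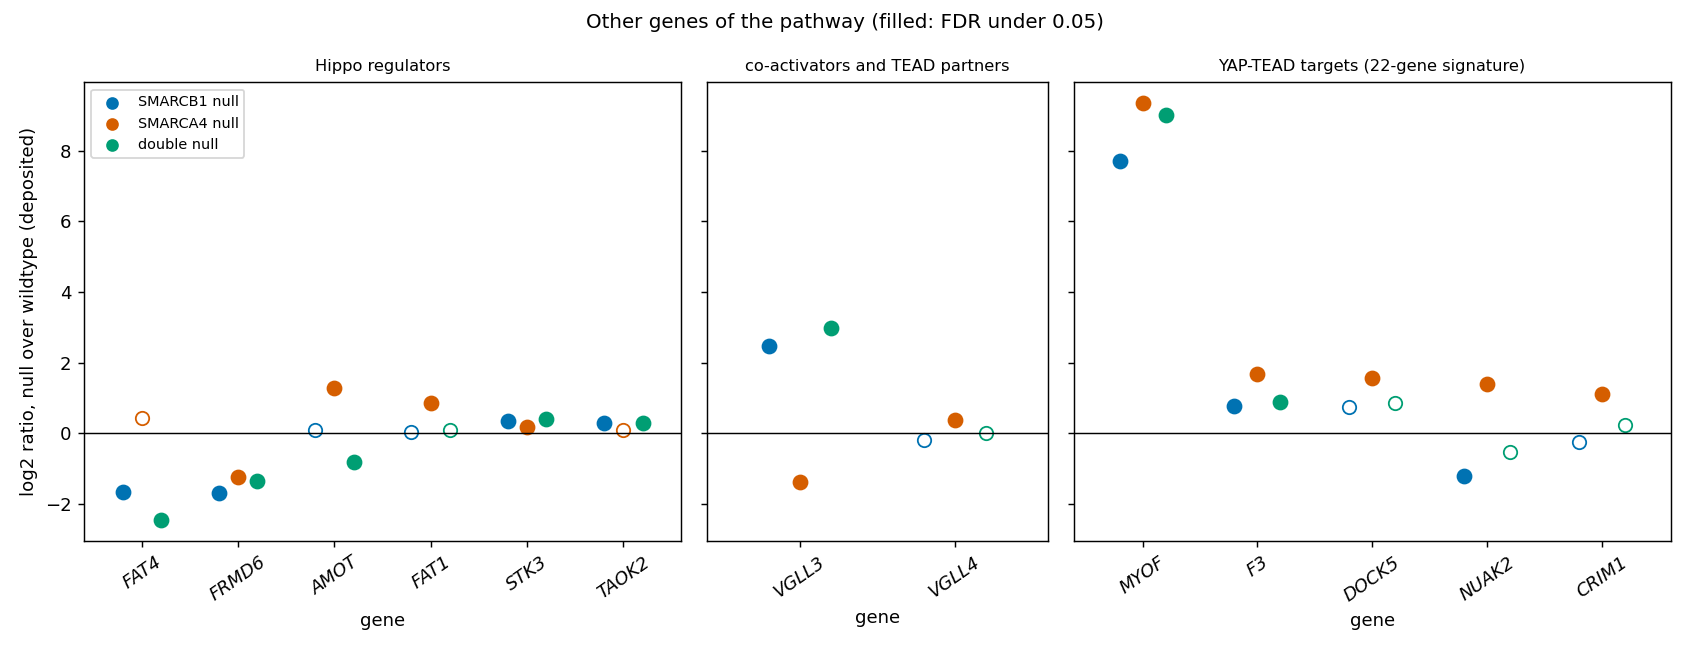
Deposited log2 ratio of each null to wildtype (vertical axis) for called genes of the 3 pathway lists that are no members (horizontal axis); filled points have an FDR under 0.05 in the authors' table and open points do not, and the table gives no error. VGLL3 lies above 0 in the SMARCB1 and double nulls and below 0 in the SMARCA4 null, and FRMD6 lies below 0 in all 3 nulls.

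Rows with at least 1000 total reads were ranked by the Euclidean distance of their 3 log2 ratios from those of CTGF, CYR61 and YAP1, a description over 3 comparisons that share the wildtype libraries. Nearest to CTGF were HTR1D (distance 0.37), RAP1GAP2 (0.45), CLU (0.52), NINL (0.57) and APOBEC3B (0.60). Nearest to CYR61 were CP (0.20), NMUR1 (0.21), WIPI1 (0.24), ITGA3 (0.33) and HOOK1 (0.33). Nearest to YAP1, whose ratios lie near 1, were EPB41L5 (0.0077), KTI12 (0.011), ARPC4-TTLL3 (0.023), PILRB (0.024) and GALK2 (0.025).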

How the data were processed

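RNA-seq was run on 8 HAP1 libraries, 2 in each of 4 groups. The submitters' processing notes name the aligner STAR, the software Partek 4.0 and the build hg19. How reads were counted and tested, and with which annotation, is not given in the sources used here. Per the labels' protocols, RNA came from subconfluent cells and libraries from a stranded mRNA kit.

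The deposited table holds, per the file headers, the authors' total reads of a gene over all libraries (an estimated count, whole within 0.001 for 47.8% of 19541 rows, 631 M reads in all), and for each null against wildtype the authors' p-value, FDR, ratio and signed fold. The signed fold is a score that the authors derived from that ratio. The deposited FDR equals the Benjamini-Hochberg adjustment of the deposited p-value. A second deposited table of 409 selected rows holds none of the 10 members.

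The members and lists were chosen with earlier results of these data known. Named are all members, up to 6 further called genes with at least 50 reads per list (those with the largest ratios), the 5 nearest rows to CTGF, CYR61 and YAP1, and the targeted genes; 1 further gene that the rule names is not reported here. Numbers of reads per library were solved, after the files had been seen, as whole numbers that give back the total and all 3 ratios (totals up to 50000, sympy 1.14.0), for 5451 genes. The solver gave back all reads simulated from genes it had already solved. Of the genes tried, it solved 93.2% with totals up to 1000 reads, 37.6% up to 10000 and 31.9% up to 50000. In simulated data edgeR called 27% of 2-fold and 50% of 4-fold changes, with 12 false calls among 3198 unchanged genes. So a gene that edgeR did not call may still have changed. The depths of 67.9 to 103 M reads are inferred shares of the total reads over all genes, not library sizes that the authors give. Counting error is the least error of a value. The solved reads entered a robust quasi-likelihood fit of edgeR 4.0.16 (R 4.3.3) with library sizes as the authors scaled them. FilterByExpr left 3398 genes, over which p-values were adjusted after Benjamini and Hochberg (threshold 0.05). These genes do not stand for the transcriptome. Alternatives were TMM, DESeq2 1.42.0, no filter on low reads, each library left out, other FDR thresholds and centred ratios. Nothing says that the libraries of a group came from separate cultures beyond passage or CRISPR line, so the edgeR and DESeq2 p-values measure only the spread between these libraries. That spread may be technical or come from passage or CRISPR line, 1 of which differs within each pair. The fit shares 1 estimate of it per gene over both kinds of pair. Promoters came from RefSeq (GRCh38.p14), and no coordinate of the hg19 files was used.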

Additional observations from a re-analysis of the deposited data

Results flagged for a closer look

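The responses of 2 genes differed between nulls by a test of the difference itself, in edgeR on recovered reads with Benjamini-Hochberg adjustment. AXL was higher in the SMARCA4 null than in the SMARCB1 null by 2.00 on the log2 scale (adjusted p = 0.0389) and higher in the double null than in the SMARCB1 null by 2.33 (adjusted p = 0.0457), with both libraries of the higher null above both of the lower one. Neither AXL call held with no filter on low reads (adjusted p = 0.0807 and 0.119), the second was lost under TMM scaling (0.0551), and with single libraries left out the adjusted p reached 0.362 and 0.461. The recovered reads of AXL are also the least secure of the 3 recovered members. NUAK2 was higher in the SMARCA4 null than in the SMARCB1 null by 2.61 (adjusted p = 8.78e-06), and the double null stood at -1.94 against the SMARCA4 null (adjusted p = 5.61e-05). No group has the 4 libraries that a check for outlying samples needs.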

How the results depend on the processing

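Of the members' deposited calls, the 1 rise in the SMARCB1 null (TEAD1) became 0 where a 2-fold change was also asked, the 1 rise in the SMARCA4 null (CYR61) became 0 at an FDR under 0.01, and the 0 rises in the double null became 1 (LATS2) at an FDR under 0.10. WWTR1 kept its 3 calls under each of these and with adjustment over rows of at least 50 reads. Centring moved the log2 ratios by 0.03 to 0.08. With no filter on low reads the edgeR change of AXL in the SMARCA4 null was 2.14 (adjusted p = 0.0578), and its differences between the SMARCB1 null and the SMARCA4 or double null were no longer called (0.0807 and 0.119). With each library left out, which assumes that the lone library of a group varies like the others and lets more genes past the filter, the edgeR log2 change of LATS2 ran from 0.25 to 0.45 in the SMARCA4 null and from 0.47 to 0.50 in the double null, and that of AXL from 1.14 to 2.73 and from 2.02 to 2.81. DESeq2 called LATS2 and AXL in the SMARCA4 null (adjusted p = 0.00629 and 0.00340) and in the double null (0.00584 and 6.57e-04). NUAK2 in the double null passed under TMM (0.0109) and DESeq2 (0.00137). The cause of these changes was not tested. The table of 409 rows gave no value, since it holds no member. No paired analysis was possible because the recovered libraries are known only as deeper and shallower and cannot be tied to a replicate label. Depth limits ANKRD1, with 141 reads in all libraries together.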

Other observations

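Among the other pathway genes with recovered reads, IGFBP3, a secreted binding protein for insulin-like growth factors, had 201 reads in the deeper double-null library and 0 in the shallower one, beside 1 and 0 in wildtype, 3 and 0 in the SMARCB1 null and 0 in both SMARCA4-null libraries. NT5E, the ectonucleotidase CD73, had 16 and 1 reads in the double null, 1 and 4 in the SMARCB1 null and 0 in the other libraries. VGLL2, a vestigial-like cofactor of TEAD known from muscle, had 24 and 0 reads in the SMARCB1 null, 7 and 6 in wildtype, 1 and 0 in the SMARCA4 null and 7 and 1 in the double null. The reads of IGFBP3 and NT5E lie mostly in the deeper double-null library. VGLL2 had its highest number in the deeper SMARCB1-null library, with its other reads spread over other groups.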
